A study of Mus musculus with 4 samples.

Results

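The small leucine-rich proteoglycans were represented by 10 genes, *Dcn*, *Bgn*, *Lum*, *Fmod*, *Kera*, *Ogn*, *Omd*, *Prelp*, *Aspn* and *Epyc*, selected by symbol from the 32285 genes in the feature lists. All 10 had at least 1 UMI (unique molecular identifier, the tag that lets each captured transcript be counted as a single molecule) in each of the 4 libraries. The libraries were 10x single-cell RNA sequencing of collagenase-digested tibial muscle from *Nse-Bmp4* mice on a C57BL/6 background, 6-8 weeks of age. A neuron specific enolase promoter drives *Bmp4* in these mice, so every group carried the transgene, and no muscle without it was analysed here. The groups were muscle left uninjured (Uninjured) and muscle taken 1, 3 or 7 days after injury (dpi) by cardiotoxin, a snake venom toxin that kills muscle fibres. Each group was 1 library made from a pool of 3 tibial muscles, so a difference between time points cannot be told apart from a difference between libraries and no p-value was computed. Intervals below are exact 95% intervals that cover counting error only.

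Small leucine-rich proteoglycans are secreted proteins built around a curved array of leucine-rich repeats, most of them carrying chondroitin, dermatan or keratan sulfate chains. They bind collagen fibrils, limit the thickness of those fibrils, and hold growth factors of the TGF-beta and BMP families in the matrix. Decorin (*Dcn*), biglycan (*Bgn*) and asporin (*Aspn*) form class I of the family. Lumican (*Lum*), fibromodulin (*Fmod*), keratocan (*Kera*), osteomodulin (*Omd*) and *Prelp* form class II, while mimecan (*Ogn*) and epiphycan (*Epyc*) belong to class III. The tissues in which the family is best known are tendon, cartilage, bone, skin and cornea, and heterotopic ossification places cartilage and bone matrix inside muscle.

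Most members lie beside each other in the genome (GENCODE M21, GRCm38). *Dcn*, *Lum*, *Kera* and *Epyc* follow one another on the plus strand of chromosome 10 from 97479609 to 97682454, with gaps of 47.0, 34.2 and 30.4 kb. *Aspn*, *Omd* and *Ogn* stand in a row on the plus strand of chromosome 13, separated by 14.9 and 15.2 kb. *Prelp*, on the minus strand of chromosome 1, is 116 kb from *Fmod* on the plus strand, and *Bgn* is on chromosome X. *Kera* and *Epyc*, adjacent on chromosome 10, were highest in different cells, *Kera* in tendon-marked and *Epyc* in cartilage-marked cells.

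Promoter windows of 300 bases (250 before the start and 50 after it, RefSeq, GRCm38.p6) were listed for 8 of the 10 members, all but *Dcn* and *Lum*. Those of 4 genes called at 7 dpi in the tenocyte or chondrocyte gate are printed 5′ to 3′ in the direction of transcription. *Ogn*, also called in the tenocyte gate, is not among them. Matches to ACAAT or its reverse complement ATTGT, the core recognised by SOX factors such as the cartilage regulator SOX9, are in capitals.
Epyc, first start, chr10:97643818-97644117, plus strand: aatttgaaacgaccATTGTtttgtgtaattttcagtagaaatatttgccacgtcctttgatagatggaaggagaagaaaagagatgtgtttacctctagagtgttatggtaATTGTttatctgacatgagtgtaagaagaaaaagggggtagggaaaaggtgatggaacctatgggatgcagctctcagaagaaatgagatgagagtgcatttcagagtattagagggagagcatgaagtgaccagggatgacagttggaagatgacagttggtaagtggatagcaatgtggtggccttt
Epyc, second start, chr10:97646853-97647152, plus strand: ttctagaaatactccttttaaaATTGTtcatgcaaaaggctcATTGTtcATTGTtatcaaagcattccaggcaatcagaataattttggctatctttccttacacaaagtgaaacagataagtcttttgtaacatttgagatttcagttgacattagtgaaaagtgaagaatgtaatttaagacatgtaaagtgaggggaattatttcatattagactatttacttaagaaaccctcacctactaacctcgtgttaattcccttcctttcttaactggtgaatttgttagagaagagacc
Omd, chr13:49582212-49582511, plus strand: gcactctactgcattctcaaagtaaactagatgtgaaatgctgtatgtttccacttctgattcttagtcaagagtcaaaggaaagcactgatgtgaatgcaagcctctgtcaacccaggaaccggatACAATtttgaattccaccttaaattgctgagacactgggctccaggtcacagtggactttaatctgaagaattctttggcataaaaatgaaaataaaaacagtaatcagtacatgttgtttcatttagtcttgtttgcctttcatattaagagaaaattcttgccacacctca
Kera, chr10:97606955-97607254, plus strand: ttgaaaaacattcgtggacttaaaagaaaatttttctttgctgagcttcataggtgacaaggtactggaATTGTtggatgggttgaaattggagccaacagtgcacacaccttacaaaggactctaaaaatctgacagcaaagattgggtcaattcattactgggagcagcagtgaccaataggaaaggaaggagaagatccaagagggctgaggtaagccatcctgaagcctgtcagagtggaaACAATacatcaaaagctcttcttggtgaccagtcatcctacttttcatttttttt
Fmod, chr1:134037004-134037303, plus strand: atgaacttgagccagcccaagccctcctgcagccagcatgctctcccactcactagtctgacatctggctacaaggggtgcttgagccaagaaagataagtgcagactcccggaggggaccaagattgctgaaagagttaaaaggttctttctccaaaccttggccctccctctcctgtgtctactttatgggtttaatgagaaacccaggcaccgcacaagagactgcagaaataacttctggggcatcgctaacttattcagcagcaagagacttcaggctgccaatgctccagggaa
The windows of *Epyc* held 2 and 3 matches, that of *Omd* 1, that of *Kera* 2 and that of *Fmod* 0. Among the 32851 windows of this length that were searched, 31.0% held at least 1 match. The remaining 4 windows had 1 match each in *Prelp*, *Aspn* and *Ogn* and 0 in *Bgn*. A match to 5 letters is a description of the sequence and not a bound site.

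The deposited matrices held 12031, 11722, 15160 and 23752 cells in time order, of which 10307, 9641, 12604 and 20300 were kept, and the median depth was 8629 UMIs per cell in Uninjured and 3083 at 7 dpi. Pairs of libraries shared 30 to 95 cell barcodes. Members made up 1.96% of all UMIs of kept cells in Uninjured and 0.886%, 0.918% and 0.804% at 1, 3 and 7 dpi. Cells were assigned to classes by gates, that is, by how many markers of a class had a UMI, and no member served as a marker. The fibroblast gate (at least 2 of *Prrx1*, *Pdgfra*, *Twist2*, *Col6a3*, *Fbn1* and *Fap*) held 8066, 3473, 5611 and 8414 cells. The tenocyte gate (at least 3 of *Tnmd*, *Scx*, *Mkx* and *Thbs4*) held 77, 30, 77 and 623 cells. The chondrocyte gate (at least 6 of *Sox9*, *Acan*, *Col9a1*, *Col9a2*, *Col11a2*, *Matn1*, *Matn3*, *Hapln1*, *Cnmd*, *Snorc* and *Ucma*) held 0 cells before 7 dpi and 3379 at 7 dpi. These 3 gates together are called mesenchymal below. Few cells of the muscle lineage were captured, 81 to 239 per library. Levels are CPM, the UMIs of a gene per 1000000 UMIs summed over the cells of a class, and they count captured transcripts without scaling to gene length. A difference between classes was called when it reached 2-fold and the gene had at least 50 UMIs over both sums.

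In mesenchymal cells the members together, mostly *Dcn* up to 3 dpi, took a smaller share of transcripts at each successive time point. The make-up of the family also changed. The summed level of the 10 members was 22221 CPM in Uninjured, 17684 at 1 dpi, 14096 at 3 dpi and 9247 at 7 dpi. *Dcn* gave 81.5% of the family's UMIs in Uninjured, 79.8% at 1 dpi, 63.9% at 3 dpi and 30.9% at 7 dpi. Over the same series *Bgn* went from 2.97% of the family to 4.39%, 17.5% and 27.7%. *Fmod* made up 0.440% of the family in Uninjured and 5.90% at 7 dpi. The lower sum does not describe every member. At 7 dpi *Dcn* (6.33-fold), *Ogn* (2.20-fold), *Prelp* (1.99-fold) and *Lum* (1.18-fold) were below their uninjured levels. *Epyc* (8.56-fold), *Fmod* (5.58-fold), *Bgn* (3.89-fold), *Aspn* (3.88-fold), *Kera* (1.42-fold) and *Omd* (1.35-fold) were above theirs.

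**Figure D1:**
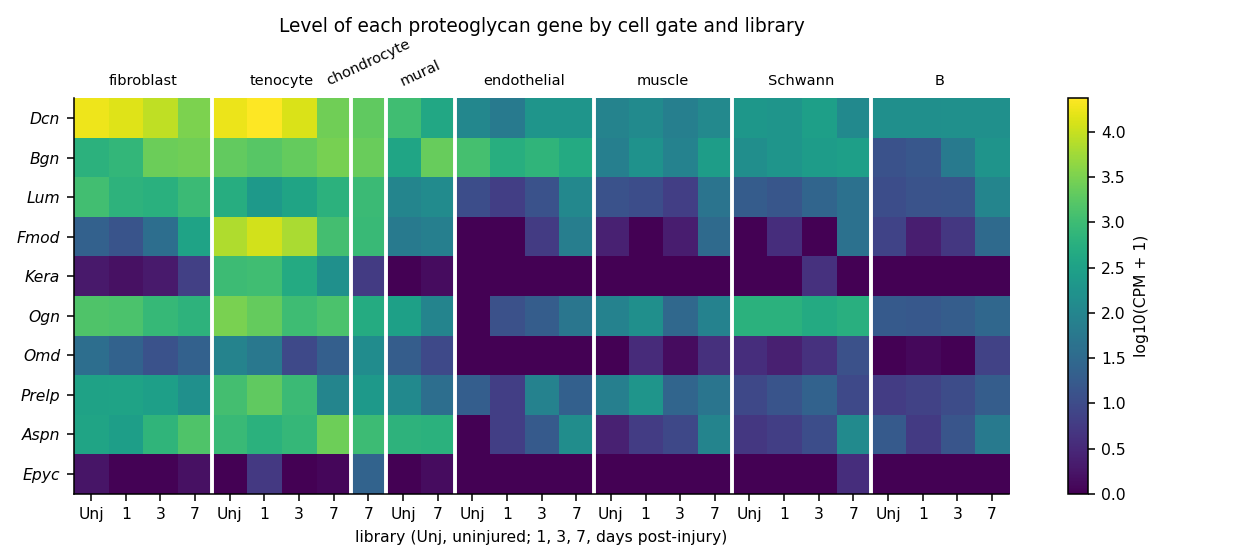
Level of the 10 members (rows) in each gate and library (columns), as log10 of CPM plus 1 in colour. Dcn is the brightest row in fibroblast and tenocyte gates up to 3 dpi, Fmod, Kera and Prelp stand out in the tenocyte gate, Epyc stands out in the chondrocyte gate, and B cells show the level that free RNA gives.

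The first question of the design was what changed from uninjured muscle to 1 dpi. Of the 10 members tested in mesenchymal cells, 0 were at least 2-fold higher and 1, *Epyc*, was at least 2-fold lower, where 7.17% of 13746 genes were higher and 4.48% lower. The median log2 difference of the members was -0.38, beside 0.15 for all genes tested. From 1 to 3 dpi, 2 of 9 members, *Bgn* and *Aspn*, were higher and 0 lower, against 5.72% and 5.44% of 13558 genes, and the median was -0.19 beside -0.08 for all genes. From 3 to 7 dpi, 3 of 10 members were higher (*Fmod*, *Omd* and *Epyc*) and 1 lower (*Dcn*), against 11.0% and 8.13% of 14499 genes, and the median was 0.79 beside -0.08. The last interval also saw the chondrocyte gate appear, so the fibroblast gate alone is given beside the mesenchymal sum. That gate still held cells with cartilage markers, fewer than the chondrocyte gate requires. In it, *Acan* was at 1.15 CPM at 3 dpi and 242 at 7 dpi, and *Sox9* at 37.1 and 114 CPM. The part of such cells in the 7 dpi fibroblast values was not tested.

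**Figure D2:**
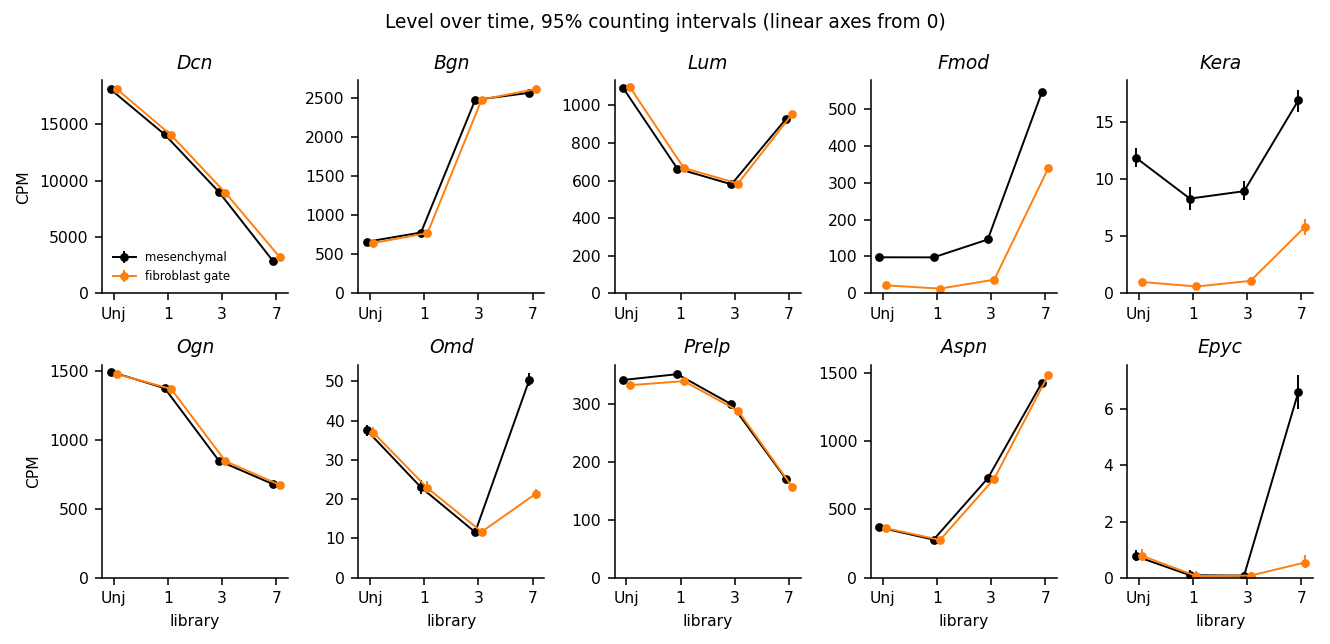
CPM of each member (vertical axes, linear from 0) against library (horizontal axes) in all mesenchymal cells (black) and in the fibroblast gate alone (orange), with exact 95% counting intervals. Dcn, Ogn and Prelp end below their uninjured level, and Bgn and Aspn end above it in both sums. The 7 dpi values of Omd and Epyc are above their uninjured level only in the mesenchymal sum.

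Among class I members, decorin, which binds type I collagen and TGF-beta, stood at 18118 CPM in Uninjured (interval 18087 to 18148), 14109 at 1 dpi, 9003 at 3 dpi and 2862 at 7 dpi. The last step, 3.15-fold lower (3.13 to 3.16), was the largest. The fibroblast gate alone gave 18128, 14042, 8932 and 3227 CPM, a 2.77-fold lower level at 7 than at 3 dpi. The median depth of this gate was 9160, 8085, 5958 and 3551 UMIs and that of B cells 2452, 2829, 1743 and 1429.5, so shares of cells with a UMI are given after thinning each cell at random to 1000 UMIs. Of thinned fibroblast-gated cells 99.4% had a *Dcn* UMI in Uninjured, 98.3% at 1 dpi, 95.5% at 3 dpi and 79.7% at 7 dpi, where B cells, which do not make decorin, thinned alike, had 14.6%, 15.7%, 16.1% and 10.4%.

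Biglycan, the nearest relative of decorin, ran the other way. Its mesenchymal level was 659 CPM in Uninjured, 777 at 1 dpi, 2472 at 3 dpi and 2563 at 7 dpi. The largest step was from 1 to 3 dpi, a 3.18-fold difference (3.14 to 3.23), and the step from 3 to 7 dpi was 1.04-fold. Thinned fibroblast-gated cells with a *Bgn* UMI made up 34.2%, 37.1%, 68.2% and 85.4% in time order, and thinned B cells 1.01%, 1.82%, 6.92% and 14.2%. *Dcn*, far above *Bgn* in Uninjured, was thus close to it at 7 dpi, at 2862 against 2563 CPM.

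Asporin, a class I member that carries no sulfated chain and binds BMP-2 and TGF-beta, was at 368 CPM in Uninjured, 279 at 1 dpi, 727 at 3 dpi and 1427 at 7 dpi. It was lowest at 1 dpi, passed its uninjured level by 3 dpi (2.60-fold over 1 dpi, 2.54 to 2.66), and gained a further 1.96-fold (1.94 to 1.99) by 7 dpi, just short of the call. In the fibroblast gate alone that last step was 2.05-fold, from 725 to 1485 CPM. Thinned cells of that gate with an *Aspn* UMI went from 23.3% and 16.5% to 32.9% and 63.8%, with B cells at 0.503%, 0.530%, 1.15% and 6.01%.

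Class II members followed no common course. Lumican, which spaces collagen fibrils in cornea and skin, was at 1093 CPM in Uninjured, 664 at 1 dpi, 579.8 at 3 dpi and 926 at 7 dpi, a shallow dip with 1.65-fold and 1.60-fold as its largest steps. *Prelp*, which binds both collagen and heparan sulfate, was at 341, 351, 299 and 171 CPM. Its 1 dpi value was 1.03-fold the uninjured one on CPM, and this small difference turned to a log2 value of -0.13 with TMM or median-ratio scaling. The 7 dpi value was 1.74-fold lower than the 3 dpi one, and 1.99-fold lower (1.95 to 2.03) than that of uninjured muscle.

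Fibromodulin, a tendon and cartilage proteoglycan that competes with lumican for the same collagen site, was at 97.7 CPM in Uninjured, 97.5 at 1 dpi, 146 at 3 dpi and 546 at 7 dpi. It was level over the first day and 3.74-fold higher (3.65 to 3.84) at 7 than at 3 dpi. Most of the early transcripts came from few cells: the tenocyte gate held 74.2% of all *Fmod* UMIs in Uninjured, 71.3% at 1 dpi and 62.7% at 3 dpi, but 13.1% at 7 dpi. In the fibroblast gate the level was 21.6, 12.7, 37.0 and 340.3 CPM, 9.19-fold higher (8.76 to 9.65) at 7 than at 3 dpi. Thinned cells of that gate with an *Fmod* UMI were 0.967%, 0.404%, 1.73% and 24.8%, while B cells had 0%, 0.151%, 0.865% and 2.19%. For the first of these B cell shares, 0 of 199 cells had a UMI, which allows a share of up to 1.51%.

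Keratocan, a keratan sulfate carrier best known from cornea and also found in tendon, was rarer. Its mesenchymal level was 11.9 CPM in Uninjured, 8.30 at 1 dpi, 8.95 at 3 dpi and 16.9 at 7 dpi, with overlapping intervals at 1 and 3 dpi. Within the fibroblast gate it was at 0.991, 0.597, 1.09 and 5.80 CPM, from 75, 19, 55 and 278 UMIs. Tenocyte markers in the fibroblast gate were higher at 7 dpi than in Uninjured, as both genes were, but not all followed the same course. *Scx* stood at 0.515, 0.440, 1.53 and 50.3 CPM there and *Tnmd* at 27.7, 5.69, 9.28 and 93.2 CPM. *Mkx* was at 0.238, 0.314, 0.833 and 1.79 CPM. *Thbs4*, at 84.9, 181, 629 and 581 CPM, was higher at 1 dpi than in Uninjured and was not highest at 7 dpi. The part of cells with these markers in the *Fmod* and *Kera* values was not tested.

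Osteomodulin, a keratan sulfate proteoglycan of mineralised tissue, was at 37.5 CPM in Uninjured, 23.0 at 1 dpi, 11.6 at 3 dpi and 50.4 at 7 dpi. The step from 1 to 3 dpi was 1.99-fold lower (1.78 to 2.22) and the next 4.35-fold higher (3.99 to 4.75). In the fibroblast gate alone the level was 11.7 CPM at 3 dpi and 21.4 at 7 dpi, 1.83-fold higher (1.65 to 2.03). The 7 dpi value of that gate was still 1.73-fold below its uninjured 36.9 CPM. At 7 dpi the chondrocyte gate held 57.5% of all *Omd* UMIs and the fibroblast gate 23.5%.

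The class III members differed from each other by orders of magnitude. Mimecan, also called osteoglycin and first isolated from bone, was at 1495 CPM in Uninjured, 1375 at 1 dpi, 849 at 3 dpi and 679 at 7 dpi, lower at each time point but never by 2-fold from one to the next. From Uninjured to 7 dpi the difference was 2.20-fold (2.18 to 2.23). Epiphycan, a proteoglycan of growth cartilage, had 59 mesenchymal UMIs in Uninjured, 3 at 1 dpi, 4 at 3 dpi and 477 at 7 dpi, which is 0.771, 0.0936, 0.0780 and 6.60 CPM. The ratio of 7 to 3 dpi was 84.6 with an interval of 32.8 to 312, wide because of the 4 UMIs below it. All 59 uninjured UMIs lay in the fibroblast gate, in 30 of its 8066 cells, and B cells held 0 *Epyc* UMIs in all libraries.

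The second comparison set cartilage-marked cells against fibroblasts within the 7 dpi library. In the chondrocyte gate 3 of 10 members, *Fmod*, *Omd* and *Epyc*, were at least 2-fold higher and 0 lower, where 3.83% of 13574 genes were higher and 6.79% lower. The median log2 difference was -0.10 for the members and -0.15 for all genes tested. *Epyc* stood at 23.8 CPM in the chondrocyte gate and 0.542 in the fibroblast gate, a ratio of 44.0 (29.6 to 68.1) from 450 and 26 UMIs. *Omd* was at 133 and 21.4 CPM, 6.23-fold higher (5.79 to 6.70), and *Fmod* at 897 and 340.3 CPM, 2.63-fold higher (2.58 to 2.69). The chondrocyte gate held 81.4% of all *Epyc* UMIs at 7 dpi, in 228 of its 3379 cells.

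Other members were closer to even. *Prelp* was 1.47-fold higher in the chondrocyte gate (229.7 against 157 CPM). *Dcn* (1997 against 3227 CPM), *Aspn* (969 against 1485 CPM) and *Ogn* (490.4 against 674 CPM) were lower there by 1.62-fold, 1.53-fold and 1.38-fold. *Bgn*, at 2328 against 2609.6 CPM, was 1.12-fold lower. *Lum* differed by a log2 value of -0.03, which became 0.10 with median-ratio scaling and 0.09 with TMM. For *Kera* the ratio of 0.804 had an interval of 0.625 to 1.03 that includes 1.

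Counting how many of the 11 cartilage markers a 7 dpi mesenchymal cell carried showed the members peaking at different points. *Dcn* was highest with 0 markers, at 4542 CPM, was at 2008 CPM with 4 markers, and changed little from there to 10 markers. *Aspn* was at 991 CPM with 0 markers, 2159 with 4 and 342 with 11. *Ogn* went from 659.7 CPM with 0 markers to 931 with 5 and 267 with 11. Cells with fewer markers than the chondrocyte gate requires entered by the fibroblast or tenocyte gate, and the others by the chondrocyte gate. From 5 markers to the first bin of the chondrocyte gate, *Aspn* went from 2022 to 1549 CPM and *Ogn* from 931 to 698 CPM. The part of this change of gate in the values was not tested. *Aspn* and *Ogn*, 2 genes of the chromosome 13 group, were thus highest in bins with an intermediate number of cartilage markers.

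*Omd*, which lies between them, was at 16.8 CPM with 0 markers, 52.4 with 6, 170.5 with 10 and 155 with 11. *Epyc* stayed under 1 CPM up to 5 markers, then stood at 2.15 CPM with 6, 17.5 with 9 and 74.7 with 11. *Fmod* was higher at nearly every added marker, from 176 CPM with 0 to 1173 with 11. *Prelp* was lowest at 3 and 4 markers, at 114 CPM in both bins, against 209.7 with 0 and 295 with 11. Deeper cells show more markers, and the median depth was 2489.5 UMIs with 0 markers, 6601 with 3, 2746 with 6 and 8612 with 11. It was higher with each added marker from 0 to 3 and from 6 to 11, and lower with each from 3 to 6. From 6 to 11 markers, depth and marker number thus rose together, and the part of depth in the values was not tested.

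**Figure D3:**
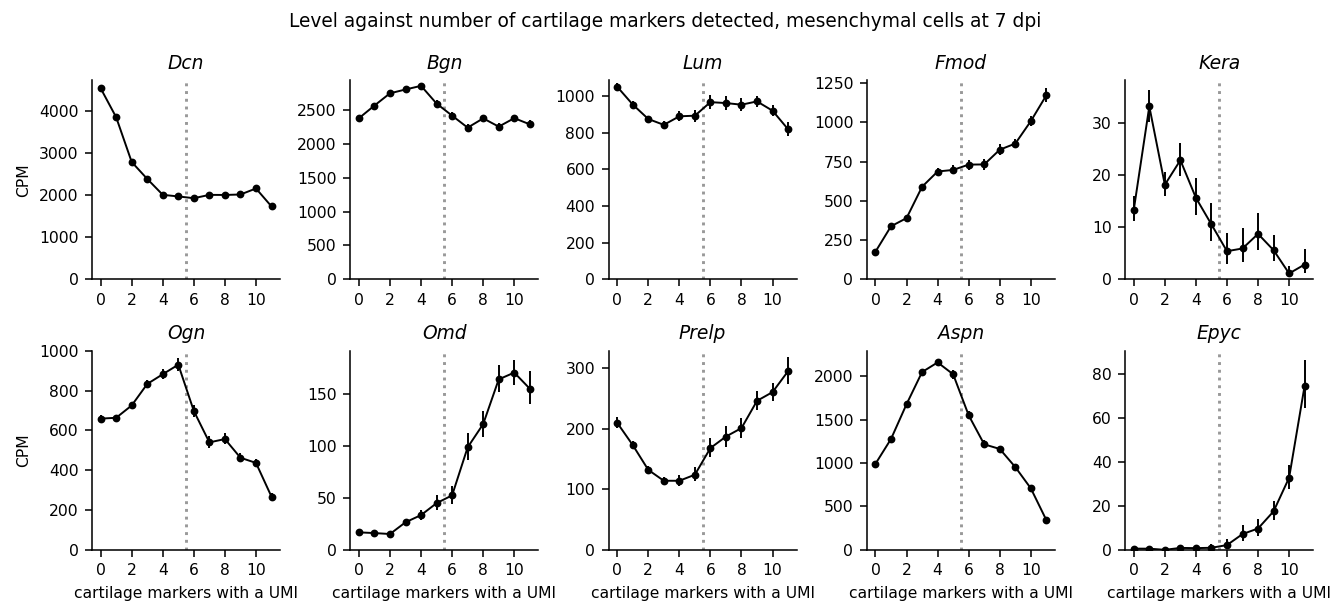
CPM of each member (vertical axes, linear from 0) against the number of cartilage markers with a UMI (horizontal axes), in mesenchymal cells at 7 dpi with exact 95% counting intervals; the dotted line marks the chondrocyte gate. Aspn peaks at 4 markers and Ogn at 5, left of that line, where cells entered by the fibroblast or tenocyte gate. Omd, Fmod and Epyc are highest at 10 or 11.

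Within the chondrocyte gate, 961 cells carried at least 2 of the hypertrophy markers *Col10a1*, *Ihh* and *Alpl*, which mark enlarging chondrocytes before bone formation. *Aspn* was 1.75-fold lower in them (642 against 1123 CPM) and *Ogn* 1.84-fold lower (312 against 574 CPM). *Epyc* was 1.29-fold higher (1.06 to 1.56) and *Prelp* 1.13-fold higher (1.06 to 1.21). *Omd*, at 136 against 132 CPM, had an interval of the ratio of 0.947 to 1.12. The *Ogn* difference was the largest among the members. How many of all genes reached 2-fold between these chondrocyte subsets was not counted.

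The third comparison concerned tendon-marked cells, in which the levels of *Fmod*, *Kera* and *Prelp* were above those of the fibroblast gate in the first 3 libraries. *Fmod* in the tenocyte gate stood at 7047 CPM in Uninjured, 11699 at 1 dpi, 6460.5 at 3 dpi and 1141 at 7 dpi. Set against the fibroblast gate of the same library, these values were 327-fold, 919-fold, 174-fold and 3.35-fold higher. *Kera* stood at 1004, 1063, 465 and 157 CPM, which is 1013-fold (799 to 1301), 1779-fold (1115 to 3005), 427-fold (321 to 576) and 27.1-fold (23.6 to 31.1) the fibroblast level. In every library the tenocyte gate was thus far above the fibroblast gate for both genes, and least so at 7 dpi. *Kera* UMIs were found in 54.5%, 46.7%, 41.1% and 10.8% of thinned tenocyte-gated cells and in 0.0372%, 0.0577%, 0.164% and 0.853% of fibroblast-gated ones.

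*Prelp* was spread more widely, since the tenocyte gate held 3.51% of its UMIs in Uninjured and the fibroblast gate 92.2%. It stood at 1151 CPM in the tenocyte gate of Uninjured, 2005 at 1 dpi and 942 at 3 dpi, 3.47-fold, 5.92-fold and 3.27-fold above the fibroblast gate, and at 97.4 CPM at 7 dpi, 1.61-fold below it. *Ogn* stayed on the higher side with 3133, 2177, 1039 and 1371 CPM, 2.12-fold, 1.59-fold, 1.23-fold and 2.03-fold the fibroblast level. *Lum* was lower in the tenocyte gate of each library, 2.08-fold, 2.98-fold, 1.65-fold and 1.47-fold. *Bgn* was 3.26-fold higher in Uninjured and 1.13-fold lower at 3 dpi.

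At 7 dpi, 3 of 9 members, *Fmod*, *Kera* and *Ogn*, were at least 2-fold higher in the tenocyte gate than in the fibroblast gate and 0 were lower, where 1.45% of 13136 genes were higher and 6.06% lower. The median log2 difference was 0.19 for the members and -0.06 for all genes tested. *Ogn* was under 2-fold in the mean over cells, with thinned cells and without the cell filter. *Dcn*, at a log2 value of -0.29, changed sign to 0.43 when 1 more marker was required in every gate.

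The tenocyte gate did not hold like cells at all times. *Thbs4*, a tendon matrix gene, was at 6287, 13244, 11563 and 1426 CPM in it, and *Mkx* at 65.1, 133, 122 and 24.5 CPM. *Tnmd* was at 3311, 938, 778 and 1492 CPM and *Scx* at 896, 215, 166 and 348 CPM, so not all tendon markers were lowest at 7 dpi. The cartilage gene *Acan* was at 7.23 CPM in Uninjured, 0 at 1 dpi, 15.0 at 3 dpi and 409.6 at 7 dpi. *Sox9* was at 7.23, 68.8, 19.6 and 114 CPM in time order. Both genes were also highest at 7 dpi in the fibroblast gate. There *Acan* was at 0.132, 0.440, 1.15 and 242 CPM and *Sox9* at 32.2, 37.3, 37.1 and 114 CPM. The part of these differences in the member values was not tested, and the 1 dpi gate rests on 30 cells.

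**Figure D4:**
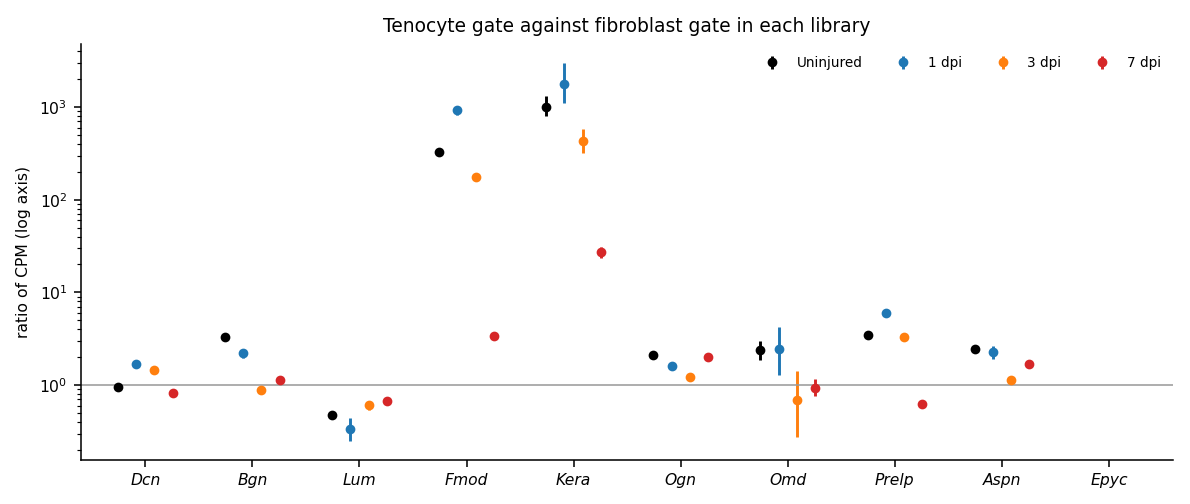
Ratio of CPM in the tenocyte gate to CPM in the fibroblast gate (vertical log axis) for each member (horizontal axis) and library (colour), with exact 95% intervals; ratios with 3 or fewer UMIs on either side are not drawn, which leaves out Epyc. Kera and Fmod lie 174-fold or more above 1 up to 3 dpi and at 27.1-fold and 3.35-fold at 7 dpi.

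A pair of fibroblast subsets differed in which members were high, although their gates leave out many fibroblast-gated cells. The adventitial gate (at least 2 of *Pi16*, *Dpp4*, *Sema3c*, *Wnt2* and *Anxa3*, genes of fibroblasts around vessels) held 2422 uninjured cells, and the interstitial gate (at least 2 of *Smoc2*, *Col15a1* and *Hsd11b1*, genes of fibroblasts between fibres) 2334. In Uninjured, *Bgn* was at 107 CPM in adventitial and 924 in interstitial cells, 8.66-fold lower (8.29 to 9.04). *Lum*, at 274 and 2092 CPM, was 7.63-fold lower, and *Dcn*, at 10582 and 25964 CPM, 2.45-fold lower. *Fmod* (5.84 and 12.9 CPM, 2.22-fold) and *Prelp* (214 and 409 CPM, 1.91-fold) were lower in adventitial cells too. *Aspn* was 5.42-fold higher (5.16 to 5.69) in adventitial cells, at 540.2 against 99.7 CPM, and *Omd* 3.39-fold higher, at 56.2 against 16.6 CPM. *Ogn*, at a ratio of 1.06, was close to even.

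Most of these contrasts were smaller in later libraries. The adventitial to interstitial ratio of *Bgn* was 0.116 in Uninjured, 0.341 at 1 dpi, 0.735 at 3 dpi and 0.909 at 7 dpi. That of *Aspn* was 5.42, 7.28, 3.10 and 1.27, and that of *Lum* 0.131, 0.117, 0.177 and 0.456. For *Omd* the ratio went from 3.39 to 0.891 (0.676 to 1.18), an interval that includes 1. *Dcn* changed little, with 0.408, 0.403, 0.420 and 0.464. *Kera*, even in Uninjured at 0.932 (0.500 to 1.74), was at 3.96 (1.78 to 10.4) at 7 dpi, from 47 and 7 UMIs. Whether the gates mark like cells before and after injury was not tested. The share of all genes at least 2-fold apart between these subsets was not counted.

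**Figure D5:**
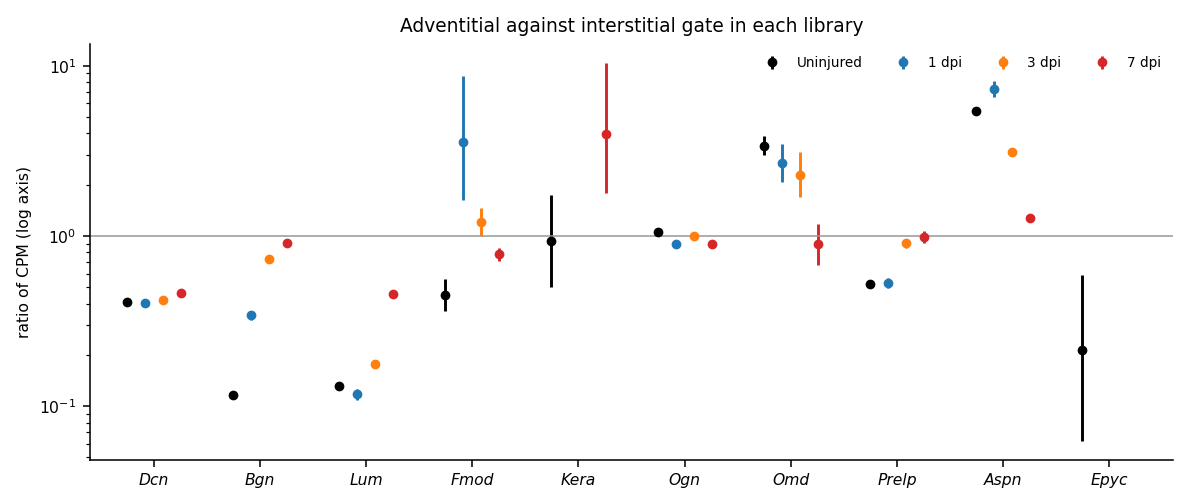
Ratio of CPM in the adventitial gate to CPM in the interstitial gate (vertical log axis) for each member (horizontal axis) and library (colour), with exact 95% intervals; ratios with 3 or fewer UMIs on either side are not drawn. Bgn goes from 0.116 to 0.909 and Aspn from 5.42 to 1.27 between Uninjured and 7 dpi, whereas Dcn stays between 0.403 and 0.464.

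Cycling fibroblasts (at least 2 of *Mki67*, *Top2a*, *Cdk1*, *Ccnb1* and *Birc5*) were low in some members and not in others, as shares of their UMIs. The 4830 other fibroblasts at 3 dpi held 36001033 UMIs and the 781 cycling ones 14423922, so cycling cells held more UMIs each. At 3 dpi, when they numbered 781, *Dcn* was at 3009 CPM in them and 11305 in the remaining fibroblasts, 3.76-fold lower (3.72 to 3.79). *Lum* was 3.30-fold lower (221 against 729 CPM), *Ogn* 3.34-fold lower (317 against 1058 CPM) and *Omd* 4.83-fold lower (3.12 against 15.1 CPM). *Prelp* was 1.91-fold lower (175 against 333 CPM), and *Kera*, from only 2 and 53 UMIs, 10.6-fold lower (2.80 to 89.9). *Bgn*, at 2446 against 2489.9 CPM, *Aspn*, at 659.5 against 752 CPM, and *Fmod*, at 38.9 against 36.3 CPM, were within 1.14-fold of even. At 7 dpi the *Dcn* difference was 2.05-fold, and that of *Bgn* 1.19-fold. *Ogn* was 2.13-fold, *Lum* 1.93-fold and *Omd* 1.53-fold lower in cycling cells then. *Kera* was 1.21-fold lower (0.896 to 1.65), from 55 and 223 UMIs, with an interval that includes 1. How many of all genes reached 2-fold between cycling and other fibroblasts was not counted.

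Cells with osteochondral progenitor markers (at least 2 of *Lrrc15*, *Tnn* and *Runx2*, genes of matrix-producing cells on the way to cartilage or bone) numbered 1337 at 7 dpi, 46 at 3 dpi and 6 at 1 dpi. Compared with the interstitial gate of 7 dpi, they had 4.34-fold less *Dcn* (1768 against 7665 CPM) and 2.84-fold less *Prelp* (79.2 against 225 CPM). They had 2.49-fold more *Aspn* (2107 against 847 CPM) and 2.74-fold more *Fmod* (542 against 198 CPM). The whole fibroblast gate of that library was closer to them than the interstitial gate was, at 3227 CPM for *Dcn*, 157 for *Prelp*, 1485 for *Aspn* and 340.3 for *Fmod*. *Bgn* was 1.13-fold higher in them, and *Ogn* (0.982 to 1.07) and *Omd* (0.938 to 1.54) had intervals of the ratio that include 1. *Epyc* had 4 UMIs in these progenitor-marked cells. The share of all genes at least 2-fold apart between the progenitor and interstitial gates was not counted.

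Outside the mesenchymal gates, some members stood above the level that free RNA gave in B cells. Schwann cells, the glia of peripheral nerve, had *Ogn* at 607, 609, 472 and 578 CPM in time order, where B cells had 16.5, 14.8, 18.6 and 27.9. The levels overlapped between all libraries within their intervals, and 33.0%, 33.7%, 34.2% and 33.3% of thinned Schwann cells had an *Ogn* UMI. *Ogn* made up 61.8%, 59.7%, 43.4% and 47.8% of the family's UMIs in this gate, against 6.68% in uninjured fibroblasts. *Bgn* in Schwann cells was at 140.4, 186, 260 and 288 CPM, against 11.6, 14.2, 61.0 and 180 in B cells. *Prrx1*, a marker of the fibroblast gate, was at 2.67, 1.39, 0 and 11.0 CPM in the Schwann gate. Cells that also passed the fibroblast gate had been left out of the Schwann gate, so a low *Prrx1* level follows in part from the gating.

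*Bgn* was the main member of endothelial cells, at 1189 CPM in Uninjured, 557 at 1 dpi, 721 at 3 dpi and 475 at 7 dpi. The gate held 21, 66, 120 and 64 cells, and *Bgn* gave 89.8%, 86.0%, 68.7% and 45.2% of the family's UMIs there. Mural cells, the smooth muscle and pericytes of vessels, had *Aspn* at 671 CPM in Uninjured (41 cells) and 619.7 at 7 dpi (328 cells). Their *Bgn* level was 374 and 2229 CPM in the same libraries. Unlike the other gates outside the mesenchymal ones, the mural gate could hold cells that also passed the fibroblast gate. *Dcn* in it was at 1053 and 409 CPM, against 147 and 155 in B cells. The part of fibroblast transcripts in the mural values was not tested. Muscle-lineage cells had *Prelp* at 75.8, 186, 25.2 and 48.6 CPM, against 4.96, 6.30, 9.31 and 18.6 in B cells. They also had *Ogn* at 85.9, 151, 28.5 and 86.8 CPM, against 16.5, 14.8, 18.6 and 27.9 in B cells. Their *Bgn* level was 75.8, 168, 84.7 and 273 CPM, against 11.6, 14.2, 61.0 and 180 in B cells. The intervals of the muscle and B cell levels overlapped for *Ogn* and *Bgn* at 3 dpi and for *Prelp* at 7 dpi.

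Free RNA changed with time for some members and not for others. *Dcn* in B cells was even over time, at 147, 149.6, 155 and 155 CPM, while the fibroblast level was lower at each time point, so it stood at 0.811% of the fibroblast level in Uninjured and 4.81% at 7 dpi. *Bgn* in B cells was at 11.6, 14.2, 61.0 and 180 CPM, and *Lum* at 9.91, 12.1, 12.4 and 96.2 CPM. The B cell level of *Fmod* in Uninjured was 30.7% of the fibroblast level but rests on 4 UMIs (6.61 CPM, 1.80 to 16.9), and NK and T cells of that library had 1.69 CPM. Subtracting the B cell level left each called member called in every comparison.

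The partners of the family were described by 5 lists of genes. Their counts are to be read beside the shares of all tested genes at least 2-fold higher and lower. These were 7.17% and 4.48% at 1 dpi against Uninjured, and 5.72% and 5.44% at 3 against 1 dpi. They were 11.0% and 8.13% at 7 against 3 dpi, 3.83% and 6.79% in the chondrocyte gate, and 1.45% and 6.06% in the tenocyte gate. Of 10 fibril collagens and fibril-associated collagens, which the members bind, 0 were at least 2-fold higher and 4 lower at 1 dpi than in Uninjured, with a median log2 difference of -0.78. *Col1a1* (4902 to 1775 CPM, 2.76-fold lower) and *Col11a2* (2.51-fold lower) were the farthest down. From 1 to 3 dpi, 4 of 9 were higher and 0 lower, with a median of 0.96, led by *Col12a1* (40.0 to 216 CPM, 5.39-fold) and *Col1a1* (2.37-fold). From 3 to 7 dpi, 5 of 10 were higher and 0 lower, with a median of 1.31, led by *Col2a1* (0.390 to 3488 CPM) and *Col11a2* (2.38 to 322 CPM), the latter being 1 of the gate's cartilage markers. In the chondrocyte gate, *Col2a1* (62.3-fold) and *Col11a2* (39.4-fold) were among 3 higher collagens and *Col14a1* (2.51-fold lower) was the 1 lower. The tenocyte gate at 7 dpi had 2 of 10 higher, *Col11a2* (2.37-fold) and *Col11a1* (2.31-fold).

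Of 19 enzymes that build chondroitin and dermatan sulfate chains, 0 reached 2-fold in either direction from Uninjured to 1 dpi or from 1 to 3 dpi. From 3 to 7 dpi, 2 were higher, the chondroitin 4-sulfotransferase gene *Chst11* (8.64 to 29.1 CPM, 3.37-fold) and the chain-initiating xylosyltransferase gene *Xylt1* (15.6 to 47.8 CPM, 3.07-fold). In the same step 2 were lower, *Csgalnact1* (111 to 46.2 CPM, 2.41-fold) and the uronyl 2-sulfotransferase gene *Ust* (24.8 to 11.4 CPM, 2.17-fold). Both counts were near the shares over all genes in that step, 11.0% higher and 8.13% lower. The chondrocyte gate had 3 of 19 higher, with *Chst11* (5.59-fold) and *Xylt1* (5.16-fold) in front and *Fam20b*, a kinase of the chain linkage, at 2.35-fold, and 0 lower. The tenocyte gate had 0 of 19 in either direction. *Dse* and *Dsel*, which turn chondroitin into the dermatan sulfate carried by decorin and biglycan, were named after their values were seen and did not reach 2-fold in any of the 5 comparisons.

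Keratan sulfate chains are carried by lumican, fibromodulin, keratocan and osteomodulin. Of 6 genes for their synthesis, 0 of 4 tested reached 2-fold at 1 dpi. The sulfotransferase gene *Chst2* was 4.50-fold higher at 3 than at 1 dpi (6.43 to 28.9 CPM), as the 1 called of 4. From 3 to 7 dpi, 1 of 5, *Chst5* (0.487 to 2.64 CPM, 5.42-fold), was higher. *Chst5* was also 19.2-fold higher in the tenocyte than in the fibroblast gate at 7 dpi (20.8 against 1.08 CPM), the gate in which *Kera* stood out, while *Chst1* was 3.15-fold lower. In the chondrocyte gate 1 of 5, *B4galt4*, was 2.16-fold lower.

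Of 10 proteases and enhancers of proteolysis that act on matrix proteins such as the members, 2 were at least 2-fold higher at 1 dpi, *Mmp13* (0.0392 to 5.06 CPM) and the aggrecanase gene *Adamts4* (8.06 to 98.3 CPM, 12.2-fold). None of 9 reached 2-fold from 1 to 3 dpi. From 3 to 7 dpi, *Mmp13* (9.70-fold) and *Tll1* (2.18-fold) were higher, and *Adamts4* (5.44-fold), *Adamts5* (4.99-fold) and *Mmp3* (2.77-fold) lower. The chondrocyte gate had *Mmp13* 2.91-fold higher and 3 of 9 lower, led by *Mmp3* (3.90-fold) and *Adamts5* (3.08-fold). The tenocyte gate had 4 of 9 lower, led by *Mmp3* (5.63-fold) and *Adamts5* (4.33-fold). *Bmp1*, which cleaves the propeptide of biglycan and was named after its values were seen, stayed between 257 and 325 CPM in mesenchymal cells.

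Of 8 other leucine-rich matrix genes, 1 of 6 tested, *Chadl* (13.9 to 6.24 CPM, 2.23-fold), was lower at 1 dpi, and 1 of 7, *Podnl1* (0.375 to 1.85 CPM, 4.94-fold), was higher at 3 dpi. From 3 to 7 dpi, 3 of 7 were higher, led by *Podnl1* (10.2-fold) and *Chadl* (7.22-fold), and 2 were lower, *Podn* (3.80-fold) and *Ecm2* (2.12-fold). *Chad*, the cartilage protein chondroadherin, was 39.2-fold higher in the chondrocyte gate (89.9 against 2.29 CPM) and 16.8-fold higher in the tenocyte gate (38.5 CPM). *Podn* was lower in both gates, by 3.53-fold and 2.22-fold.

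The genes most like each member were found by Pearson correlation of log2(CPM + 10) over 41 class and library pairs, which share libraries, depth and free RNA, so the values are descriptions. *Dcn* was closest to *Igfbp6* (0.96), *Fbln7* (0.95) and *Fap* (0.95), the last a fibroblast gate marker. *Bgn* was closest to *Col5a2* (0.97), *Fstl1* (0.97) and *Serpinh1* (0.95), and *Aspn* to *Mmp23* (0.98), *Sfrp2* (0.96) and *C1qtnf6* (0.96). The 2 class I relatives *Dcn* and *Bgn* had 0.73 between them.

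For class II, *Lum* was closest to *Srpx*, *Thbs3* and *Pcolce* (0.96 each), and *Prelp* to *Boc* (0.94), *Colec12* (0.94) and *Mrc2* (0.93). *Fmod* was closest to *Tnmd*, *Col8a2* and *Clec11a* (0.95 each), and *Kera* to *Cilp2* (0.99), *Ptx4* (0.98) and *Mkx* (0.96), where *Tnmd* and *Mkx* are markers of the tenocyte gate. *Omd* was closest to *Nrk* (0.90), *4930447C04Rik* (0.89) and *Penk* (0.89). Of the class III members, *Ogn* was closest to *Abi3bp* (0.94), *Kdelr3* (0.94) and *Fgf7* (0.93), and *Epyc* to *Meltf* (0.98), *Lbhd2* (0.96) and *Matn1* (0.95), the last a marker of the chondrocyte gate. Within the family the highest value was that of *Lum* with *Aspn* (0.95) and the lowest that of *Kera* with *Epyc* (0.00), adjacent genes on chromosome 10. Among these pairs *Epyc* passed the added 10 CPM only in the chondrocyte gate (23.8 CPM), and *Kera* only in the tenocyte gate. The values of both genes thus rest on few pairs. With 1 CPM added, *Epyc* was closest to *Meltf* (0.91), *Unc5c* (0.81) and *Ihh* (0.80).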

How the data were processed

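Counts were UMIs per gene and cell in 4 filtered 10x matrices that the authors deposited, made with Cell Ranger 5.0.0 on mm10, with Seurat 3.1.1 also named in the submitters' processing notes. The labels mention that reads were down-sampled, without saying if this came before the counts were made. The members and the gene lists were chosen with earlier results of these data known, and the gate minimums were set after looking at how many markers cells carried. Cells within 2 SD of the mean log10 UMIs and genes of their library and with at most 10% mitochondrial UMIs were kept, and the 7.5% with the highest Scrublet doublet scores (scanpy 1.11.5) were removed. Cells passing a second gate or with a UMI of the leukocyte gene *Ptprc* were left out of the mesenchymal gates, with the order chondrocyte, tenocyte, fibroblast among these. UMIs were summed per gate and library and divided by the gate's total. Intervals were exact Poisson for levels, Clopper-Pearson for shares and conditional binomial for ratios, at 95%, with a floor of 3 UMIs. With 1 library per group no test was possible, and a call was a 2-fold difference among genes with at least 50 UMIs in both sums together. Every member was described, the called genes of each list were named, at most the 2 largest each way where more were called, and the 3 most similar genes of each member. Alternatives were other cell filters, gates, depths, scalings (median-ratio, and TMM from edgeR 4.0.16), minimums and folds. The 2-fold call and the interval of the ratio were tested on simulated UMI sums without variation between libraries. The other steps were not simulated. Scripts ran in Python 3.11.15 (numpy 2.4.6, scipy 1.17.1, pandas 2.3.3, matplotlib 3.10.9) and R 4.3.3.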

Additional observations from a re-analysis of the deposited data

Results flagged for a closer look

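*Fmod* went in opposite directions in a pair of gates between 3 and 7 dpi, each past 1.5-fold. Its log2 difference was 3.20 in the fibroblast gate and -2.50 in the tenocyte gate. *Kera* did the same, with 2.41 in the fibroblast gate and -1.57 in the tenocyte gate. The difference between the gates was not tested, since each time point is 1 library, and the tenocyte gate held 77 cells at 3 dpi and 623 at 7 dpi.

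*Prelp* changed sides between libraries. The log2 ratio of the tenocyte to the fibroblast gate was 1.79 in Uninjured, 2.57 at 1 dpi and 1.71 at 3 dpi, and -0.68 at 7 dpi. This difference between libraries was not tested.

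*Fmod* also changed sides between fibroblast subsets, with a log2 ratio of the adventitial to the interstitial gate of -1.15 in Uninjured and 1.83 at 1 dpi. The 1 dpi value rests on 26 and 9 UMIs, under the 50 required for a call, and the difference was not tested.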

How the results depend on the processing

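No paired analysis was possible because each group is 1 library and carries no replicate number. No member reversed a called direction under the alternatives run. At a 1.5-fold threshold in either direction, 3 members were called at 1 dpi against Uninjured (31.8% of all genes tested), 5 at 3 against 1 dpi (27.5%), 8 at 7 against 3 dpi (35.7%), 5 in the chondrocyte gate (23.3%) and 5 in the tenocyte gate (16.8%). At 4-fold the counts were 0 at 3 against 1 dpi (2.21%), 2 at 7 against 3 dpi (6.21%) and 1 in the tenocyte gate (1.90%). In the fibroblast gate alone, an alternative chosen after seeing the data, 1, 3 and 4 members passed 2-fold in the 3 time comparisons, against 1598 of 13706, 1506 of 13518 and 2250 of 14070 genes. Of the 30 most similar genes, 13 were shared with a pseudocount of 1 CPM. The log2 difference of *Omd* from 3 to 7 dpi was 1.36 as a mean over cells and 1.42 with thinned cells, against 2.12. Requiring 1 more marker per gate moved *Kera* in the chondrocyte gate from -0.31 to -1.61, and *Fmod* in the tenocyte gate from 1.75 to 2.36, and the cause was not tested. Median-ratio and TMM scaling shifted all genes at 1 dpi against Uninjured by 0.18 and 0.17, and at 7 dpi the chondrocyte comparison by -0.13 and -0.12. *Epyc* before 7 dpi and every value of the 1 dpi tenocyte gate are limited by few UMIs or cells.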

Other observations

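A fibroblast subset gated on the injury-response genes *Cxcl5*, *Prg4* and *Saa3* (at least 2 of 3) held 17 cells at 1 dpi, 165 at 3 dpi and 27 at 7 dpi, and 0 in Uninjured. At 3 dpi *Dcn* was at 4128 CPM in it (4025 to 4233), below the 8932 CPM of the whole fibroblast gate, and *Lum* was at 254 CPM, below 584. *Bgn*, at 2612 CPM, was near the 2477 CPM of the whole gate. *Epyc* had 0 UMIs in this subset in each of the 3 libraries, which allows levels of up to 25.1, 2.03 and 16.5 CPM. The whole fibroblast gate was below these limits, at 0.0629, 0.0793 and 0.542 CPM, so the zeros do not set the subset apart.

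Cells left out as mixed stand in no comparison. They passed a mesenchymal gate with a *Ptprc* UMI, or gates of more than 1 class, other than mural with fibroblast or several mesenchymal gates. Such cells made up 4.03% of kept cells in Uninjured, 6.22% at 1 dpi, 6.79% at 3 dpi and 12.1% at 7 dpi. They held 3.14%, 8.15%, 5.86% and 9.80% of all *Dcn* UMIs. Of the 15 *Epyc* UMIs at 3 dpi, 11 lay in such cells. Cells that passed no gate also stand in no comparison. They numbered 309, 620, 1983 and 2892 in time order, with a median depth of 4762, 3618, 2062 and 1437 UMIs. At 7 dpi they had *Dcn* at 1426 CPM, *Bgn* at 1573 and *Aspn* at 996. Whether shallow mesenchymal cells are among them was not tested.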
